A study of Mus musculus with 24 samples.

Results

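The 9 genes described here, Acta2, Myh11, Tagln, Cnn1, Actg2, Myocd, Lmod1, Smtn and Myl9, belong to the contractile program of smooth muscle. They were taken by gene symbol from the table of normalized counts, which lists 23891 genes, and all 9 were found. RNA was sequenced in 24 samples of the left lung lobe of C57BL/6 mice, in 4 groups. Naïve adult mice (n = 5 samples) were 20 wk old by the sample labels. The other mice were 80 wk old and comprised naïve mice (n = 5), mice given house-dust mite (HDM), a common aeroallergen, at 50 µg per intranasal dose (n = 7), and mice given HDM whose challenge was accompanied by injections of dexamethasone (n = 7). Dexamethasone (Dex) is a synthetic steroid that activates the glucocorticoid receptor, and 4 mg/kg was injected at intervals of 72 h. The final HDM dose preceded lung collection by 24 h. The study's methods name mice of both sexes. Both naïve groups are labelled saline, and the naïve aged group is called saline in comparisons. No transgene or deletion was carried by any group, and no adult group was given HDM. The labels do not say which mouse a sample came from, and p-values measure the spread between these samples.

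Smooth muscle surrounds the airways and the blood vessels of the lung. It shortens when myosin, activated by phosphorylation of its light chain, pulls on actin filaments, and glucocorticoids are given in asthma, in which airway smooth muscle contracts too readily. Acta2 and Actg2 encode the actins of smooth muscle, Myh11 its myosin heavy chain and Myl9 the light chain that is phosphorylated. Cnn1 (calponin), Tagln (transgelin) and Smtn (smoothelin) bind actin filaments, Lmod1 (leiomodin) nucleates them, and Myocd (myocardin) is the coactivator of serum response factor that switches these genes on. Lung RNA mixes all cell types, so that fewer smooth muscle cells and less RNA per cell cannot be told apart in any value below.

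Serum response factor binds the CArG box, a motif of CC, then 6 letters that are each A or T, then GG, which reads the same on both strands. The 250 bases before the start of transcription were searched in RefSeq promoter windows (GRCm38.p6), matched by symbol for 5 of the 9 genes (Acta2, Cnn1, Lmod1, Smtn and Myl9). Myh11, Tagln, Actg2 and Myocd were not searched. The full motif was found in 1 of the 5 promoters, that of Myl9, and in 1.47% of all 32851 promoters. A 10-letter stretch with at most 1 letter off was found in 3 of the 5 and in 18.6% of all promoters. The 6 stretches are shown with the bases beside them, since Myocd, the regulator of this program, acts through serum response factor. Whether it acts at any of these stretches is not known from these data. Each is written 5′ to 3′ on the strand of its gene, with the 10 letters in capitals.
Myl9, full motif, 161 bases before the start, plus strand, chr2:156775293-156775322: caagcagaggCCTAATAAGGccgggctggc
Myl9, 1 letter off, 99 bases before the start, plus strand, chr2:156775355-156775384: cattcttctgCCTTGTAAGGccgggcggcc
Acta2, 1 letter off, 84 bases before the start, minus strand, chr19:34255438-34255467: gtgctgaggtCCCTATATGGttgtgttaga
Acta2, 1 letter off, 34 bases before the start, minus strand, chr19:34255388-34255417: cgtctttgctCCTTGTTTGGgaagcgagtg
Lmod1, 1 letter off, 189 bases before the start, plus strand, chr1:135324614-135324643: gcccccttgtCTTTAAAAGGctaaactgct
Lmod1, 1 letter off, 164 bases before the start, plus strand, chr1:135324639-135324668: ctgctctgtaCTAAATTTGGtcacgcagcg
No such stretch was found in the windows of Cnn1 and Smtn. Distances are to the RefSeq start of transcription. In the GENCODE annotation used for exon lengths below, Acta2 begins farther upstream, at chr19:34255590. Both of its stretches lie within the gene there. A match is a match of letters only, and binding was not measured.

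Values are CPM, the reads of a gene as a part of all reads of its sample, as deposited. The depth, estimated from the spacing of low values, was 10.1 to 33.1 M reads per sample, so that 3 reads corresponded to 0.0906 to 0.298 CPM. All 9 genes lay far above this amount in every sample, and the lowest value was about 45 reads, for Myocd. The 2 genes of 7SL RNA, an abundant RNA of the signal recognition particle, took 9.92% to 42.0% of a sample's CPM, and the remaining genes share what is left. That share was above 25% in 1 naïve adult sample, 0 naïve aged, 5 HDM and 4 HDM + Dex samples. The typical gene therefore did not stay at 0 between groups: over all genes tested, the log2 fold change had a median of −0.23 in HDM vs. saline, of 0.03 in HDM + Dex vs. HDM, of −0.19 in HDM + Dex vs. saline and of 0.19 in aged vs. adult. After median-of-ratios rescaling, which sets the typical gene of each sample to a common level, it was −0.01, −0.00, −0.01 and 0.00. Rescaled values are given below where they change a call or a direction. Xist exceeded Ddx3y in all 5 naïve adult but 2 naïve aged samples, 2 HDM and 4 HDM + Dex samples, so that age and sex overlap.

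Per kb of annotated exon (GENCODE, GRCm38), the most abundant of the 9 were Acta2 at 43.0, Myh11 at 41.9 and Tagln at 41.5 CPM per kb, as means over the 24 samples. Their ranges over the samples overlapped, at 22.4 to 66.6, 19.6 to 65.2 and 20.0 to 61.1 CPM per kb, and their order was not tested. Myl9 followed at 16.4 and Smtn at 10.9 CPM per kb. Actg2 at 8.02 and Cnn1 at 7.83 CPM per kb overlapped in range as well. Cnn1 had the higher mean in naïve adult (12.4 against 9.51) and naïve aged samples (8.84 against 6.54). In HDM samples it had the lower mean (4.11 against 6.88 CPM per kb). Lmod1 lay at 4.84. The coactivator Myocd was lowest at 1.00 CPM per kb. Its lowest sample lay at 0.503 and its highest at 1.61 CPM per kb. Across all samples, the highest CPM of a gene was 2.78 times the lowest for Smtn, 2.97 to 3.85 times for 7 of the others, and 5.49 times for Cnn1. The exons of Tagln share 1241 bases, or 62.4% of their length, with the antisense gene Gm48529, and those of Smtn share 714 bases (16.3%) with Gm11946. The values of both were whole multiples of 1 read in only 2 of 24 samples, against 24 of 24 samples for Acta2, Myl9, Actg2, Cnn1, Lmod1 and Myocd, so that reads of Tagln and Smtn may be split with a neighbour. Libraries were stranded by the study's methods, but whether strand was used in counting is not given in the sources used here.

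**Figure D1:**
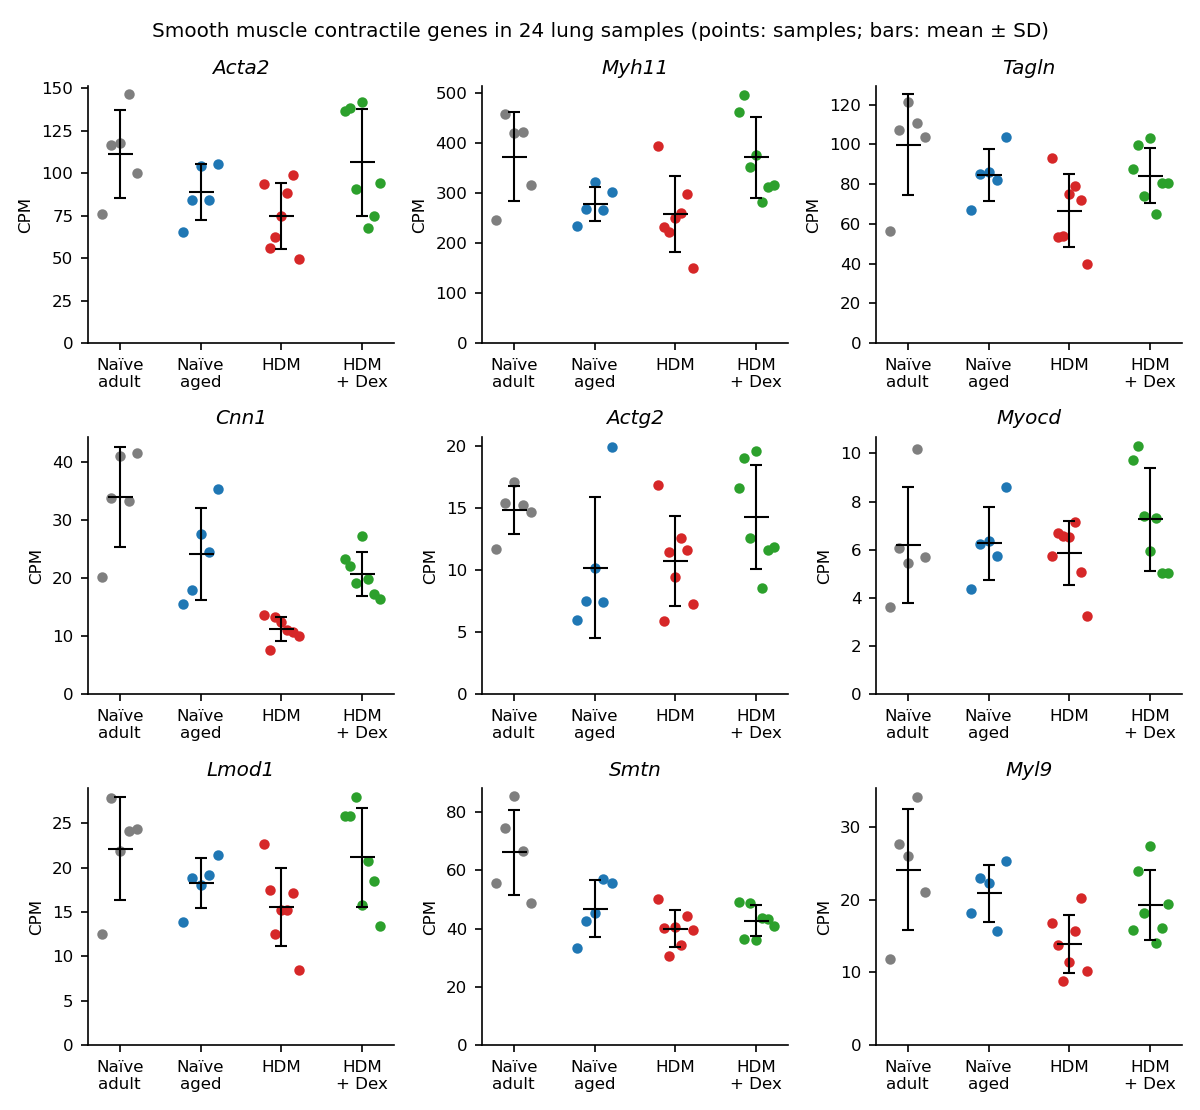
CPM (linear axis from 0) of each of the 9 genes in the 24 lung samples, with 1 point per sample and bars for mean ± SD. Cnn1 is the gene whose 7 HDM samples, between 7.56 and 13.6 CPM, all lie below the naïve aged and the HDM + Dex samples.

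The first question was what HDM challenge did to these genes in the aged lung. Of the 9, Cnn1 and Myl9 fell and none rose (2 of 9 past an adjusted p of 0.05 by limma). Over all 17744 genes tested, 25.3% were called, 21.2% lower and 4.04% higher, so that the share of the 9 is near that of all genes. The median log2 fold change of the 9 was −0.26, beside −0.23 for all genes. The actins, the myosin heavy chain, Myocd, Lmod1, Smtn and Tagln did not pass the test.

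Cnn1, the actin-binding protein calponin, was the member with the largest change. Its level was 15.6, 17.9, 27.6, 24.5 and 35.4 CPM in the naïve aged samples. In the HDM samples it was 7.56 CPM at the lowest, 11.1 at the median and 13.6 at the highest. The groups did not overlap, as for 8.71% of all genes. The mean fell from 24.2 ± 7.91 (SD, n = 5) to 11.2 ± 2.08 CPM (SD, n = 7), a log2 fold change of −1.004 ± 0.18 (SE; limma, adjusted p = 0.000998). After rescaling the log2 fold change was −0.76 ± 0.20 (SE, adjusted p = 0.00934). When samples with over 25% of 7SL RNA were left out, which leaves 2 HDM samples, it was −1.09 (adjusted p = 0.0346). In the HDM group this share goes with sex, since the 2 samples under 25% have the higher Xist and the 5 above it the higher Ddx3y, so that these cannot be told apart there. Cnn1 was called under every one of the 36 alternatives tried, with an adjusted p of 0.000319 to 0.0346.

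Myl9, the regulatory light chain of myosin, stood at 18.1, 22.95, 22.3, 15.7 and 25.3 CPM in the naïve aged samples. The HDM samples ran from 8.85 through a median of 13.8 to 20.2 CPM and overlapped with them. The mean fell from 20.9 ± 3.89 (SD, n = 5) to 13.9 ± 4.01 CPM (SD, n = 7), a log2 fold change of −0.58 ± 0.19 (SE; limma, adjusted p = 0.0312). This call was lost after rescaling, where the log2 fold change was −0.34 (adjusted p = 0.180), and without the samples over 25% of 7SL RNA, where it was −0.49 (adjusted p = 0.283). It was also lost on leaving out naïve aged replicate 2 (adjusted p = 0.0608), 3 (0.0744) or 5 (0.0845), or HDM replicate 3 (0.0708), 4 (0.0595) or 7 (0.05003).

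The other 7 genes gave log2 fold changes from −0.38 for Tagln to 0.12 for Actg2. Acta2 averaged 88.8 ± 16.5 CPM in naïve aged and 74.7 ± 19.5 in HDM samples (SD, n = 5 and 7), with a 95% interval of the log2 fold change from −0.69 to 0.16. For Myh11 the means were 278 ± 34.2 and 257 ± 75.1 CPM, with an interval from −0.53 to 0.23. Both intervals include 0 and also a moderate decrease. Tagln, at 84.7 ± 13.1 and 66.6 ± 18.3 CPM, had an interval of −0.74 to −0.02 and an adjusted p of 0.111. Its antisense neighbour Gm48529 averaged 12.6 ± 5.38 and 8.19 ± 2.87 CPM. Lmod1, which nucleates actin filaments, averaged 18.3 ± 2.77 and 15.5 ± 4.43 CPM, and Smtn 46.8 ± 9.76 and 39.9 ± 6.35 CPM. Myocd stood at 6.27 ± 1.53 and 5.85 ± 1.34 CPM, with a log2 fold change of −0.09 (interval −0.50 to 0.33). Myh11, Smtn and Myocd turned to a log2 fold change above 0 after rescaling (0.10, 0.04 and 0.14), so that 4 of 9 lay above 0 (48.9% of all genes), against 1 of 9 as deposited (26.6% of all genes). Cnn1 alone of the 9 was called after rescaling, beside 22.5% of all genes.

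Because rescaling moves all genes of a sample together, Cnn1 was also set against other genes of the same sample, a ratio that no scaling changes. Per 100 CPM of Acta2, Cnn1 amounted to 23.8, 21.2, 26.5, 29.02 and 33.5 CPM in the naïve aged samples. In HDM samples it ranged from 10.8 to 21.2 CPM with a median of 14.6, and the highest HDM sample (21.21) lay just under the lowest naïve aged one (21.24). Per 100 CPM of Myh11 the means were 8.59 ± 2.09 and 4.61 ± 1.34 CPM (SD, n = 5 and 7), and the ranges of 6.68 to 11.8 and 3.27 to 6.75 CPM overlapped slightly. Against Tagln the means were 28.1 ± 5.64 and 17.7 ± 4.94 CPM. Against Myl9, which fell too, they were 117 ± 33.8 and 87.9 ± 34.0 CPM, with wide overlap. Cnn1 thus stood lower relative to both the actin and the myosin of smooth muscle. The ratios were chosen after the values of Cnn1 were seen and were not tested.

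**Figure D2:**
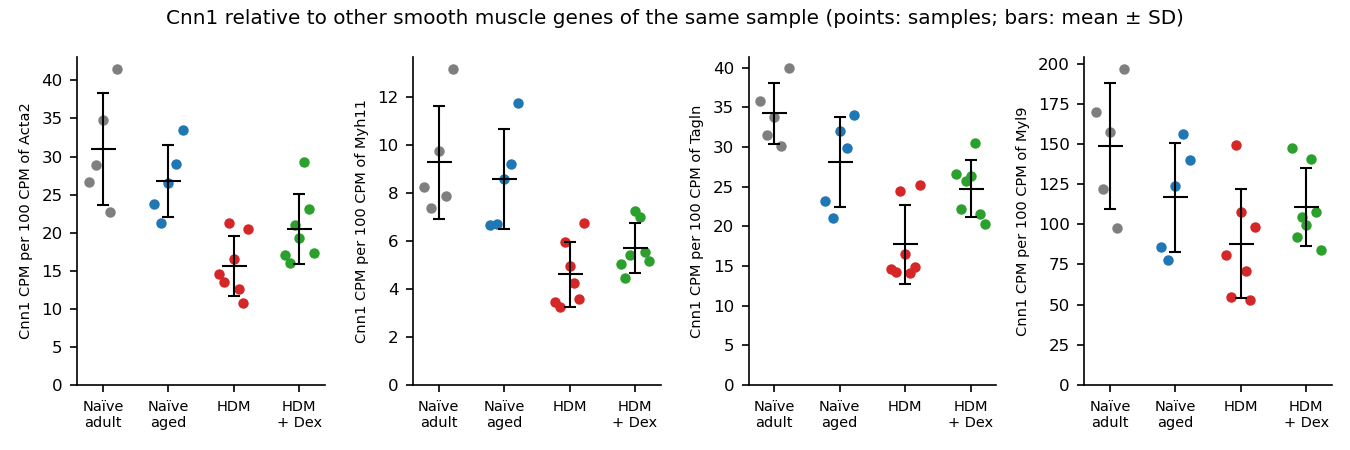
CPM of Cnn1 per 100 CPM of Acta2, Myh11, Tagln or Myl9 in the same sample (linear axes from 0), with 1 point per sample and bars for mean ± SD. Against Acta2 the HDM samples, at 10.8 to 21.2, lie below the naïve aged samples, at 21.2 to 33.5.

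Markers of other cells moved in the same comparison. All 10 heart muscle genes fell, with a median log2 fold change of −2.53, and their summed CPM went from 650 to 1254 in naïve aged samples to 31.6 to 520 in HDM samples. In HDM samples, 1 of the 10 had a median under 3 reads. Of 8 genes of the large airway epithelium, 7 fell, and their summed CPM of 4923 to 7028 in naïve aged and 351 to 2985 in HDM samples did not overlap. Genes of the endothelium fell in 6 of 8 cases, those of mural cells and pericytes in 3 of 10. Those of the airway smooth muscle and myofibroblast list fell in 6 of 8. Of all genes, 21.2% were called lower. After rescaling, 6 of the large airway genes, 3 of the endothelium and 2 of the mural cells were lower. So were 2 of the airway smooth muscle and myofibroblast list, and 1 endothelial gene, Vwf, was higher. Fibroblast genes went both ways: of 8, the collagens Col1a1 (1.58, adjusted p = 4.49e-05), Col1a2 (1.25) and Col3a1 (1.81) rose without overlap between groups, and Pi16, Tcf21 and Dcn fell, of which Pi16 was called after rescaling too. Of 7 leukocyte genes tested 1 rose (3 after rescaling), and 2 of 8 alveolar, 1 of 5 mesothelial and 3 of 7 skeletal muscle genes fell. The mesothelial list mostly went the other way, with 4 of 5 above 0 and a median of 0.27. After rescaling, 2 alveolar, 1 mesothelial and 2 skeletal muscle genes were lower, and 1 mesothelial gene was higher. All 10 heart muscle genes stayed lower on that scale. The part of these cells in the fall of Cnn1 and Myl9 was not tested. Within groups, Cnn1 varied with a correlation of −0.06 to the heart muscle list and of −0.52 to the large airway list (24 samples, group means removed). For Myl9 these correlations were 0.25 and −0.09. With the alveolar list they were −0.31 for Cnn1 and 0.32 for Myl9. None of these correlations was tested.

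Lists of proteins that work with the 9 are given beside the share of all genes called in HDM vs. saline. That share was 25.3% as deposited (21.2% lower) and 22.5% after rescaling. Of 20 partners of the contractile apparatus, 9 fell and none rose, and after rescaling 5 were lower and 1, Flna, was higher. Ldb3, a protein of the structures that anchor actin, fell by 1.81 on the log2 scale (adjusted p = 0.000561), and Pdlim3, of the same family, fell by 1.21 (adjusted p = 0.000564). The intermediate filament protein Synm fell by 1.09. These 3 genes are also expressed in heart muscle, whose list fell further, and its part in their change was not tested. The median of the 20 was −0.21, close to the −0.23 of all genes. After rescaling, 11 of 20 lay above 0, beside 48.9% of all genes.

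Genes that set the phosphorylation of the light chain fell in 10 of 11 cases, beside 21.2% of all genes. Rock2, the kinase that inhibits myosin phosphatase, had a log2 fold change of −0.96 (adjusted p = 0.000722), and Ppp1r14a, an inhibitor subunit of that phosphatase, had −0.77 (adjusted p = 0.00301). On the relaxing side, Prkg1, the cGMP-dependent kinase, had −0.79 (adjusted p = 0.00195) and Gucy1b1, a subunit of the nitric oxide receptor, −0.93 (adjusted p = 0.00230). Genes on both sides of the switch were thus lower. After rescaling, 5 of the 11 were called, all lower, these 4 among them, with a list median of −0.41.

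Of 10 genes around serum response factor that are in the table, 5 fell, beside 21.2% of all genes. The factor itself was not among the 5. Tead1 and Klf4 led with log2 fold changes of −0.76 (adjusted p = 0.00188) and −0.86 (adjusted p = 0.00437), followed by Mrtfb, a relative of Myocd, at −0.52 (adjusted p = 0.0155) and Foxp1 at −0.54 (adjusted p = 0.0173). Klf4 is known as a repressor of smooth muscle genes, Mrtfb as a coactivator. After rescaling, Tead1, Klf4 and Foxp1 stayed lower and Mrtfa was higher at 0.51 (adjusted p = 0.00249). Of 14 receptors and channels tested, 8 fell, again beside 21.2% of all genes. The endothelin receptors Ednrb and Ednra fell by 1.28 (adjusted p = 0.000906) and 0.62 (adjusted p = 0.00240), and the muscarinic receptor Chrm2, also found in heart, fell by 1.16 (adjusted p = 0.00321). Several of these genes are expressed in other lung cells as well. After rescaling, 6 of the 14 were lower, and Ednra was not among them.

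**Figure D3:**
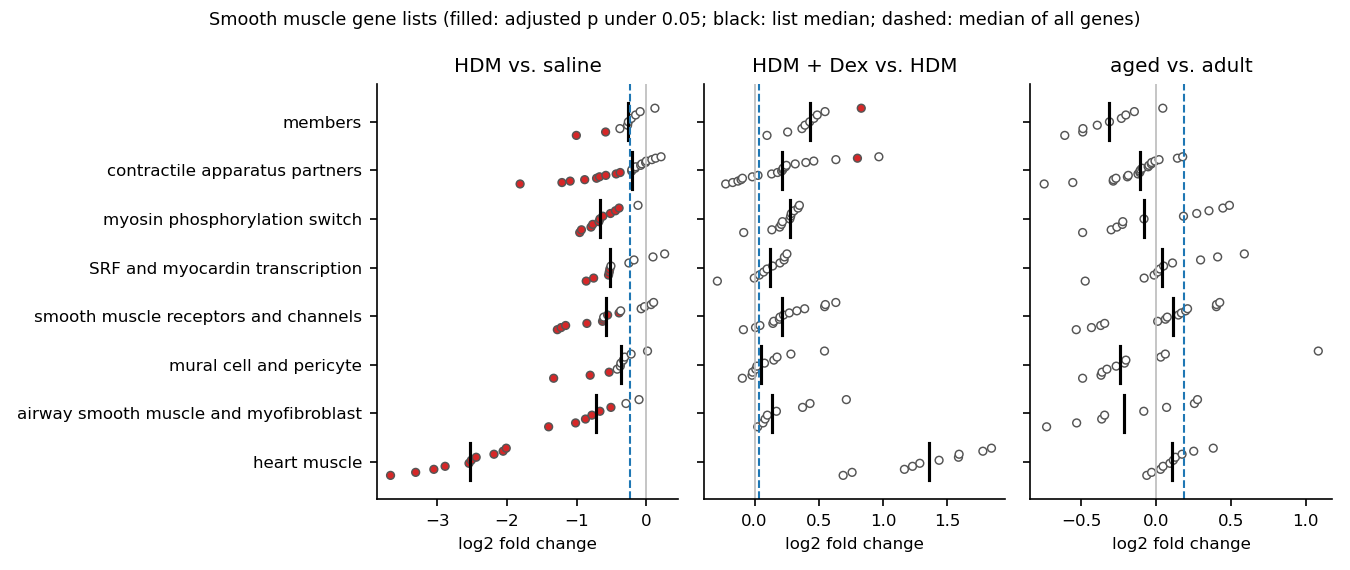
Log2 fold changes of the genes of 8 lists in 3 comparisons, with 1 point per gene, filled where the adjusted p is under 0.05. The black bar is the list median and the dashed line the median of all genes, which for HDM vs. saline lies at −0.23, beside −0.26 for the 9 genes and −2.53 for heart muscle.

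The second question was how Dex treatment changed these genes in challenged aged lungs. Cnn1 rose (1 of 9 called), while 0.964% of all genes were called and 0.75% were called higher. All 9 had a log2 fold change above 0, as had 56.2% of all genes, and the median of the 9 was 0.43 beside 0.03 for all genes. Without adjustment, 6 of 9 had a p under 0.05, beside 13.5% of all genes in either direction. The direction was above 0 for all 9 after rescaling too (49.3% of all genes), with a median of 0.39, and Cnn1 was again the 1 gene called, beside 2.85% of all genes. This comparison and HDM vs. saline share the 7 HDM samples, so that a low HDM value enters both.

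Cnn1 was 16.3 CPM at the lowest, 19.8 at the median and 27.3 at the highest in HDM + Dex samples, every one above the highest HDM sample at 13.6 CPM. Groups that did not overlap were found for 0.225% of all genes. The mean was 20.7 ± 3.78 CPM (SD, n = 7), against 11.2 ± 2.08 in HDM samples, a log2 fold change of 0.83 ± 0.17 (SE; limma, adjusted p = 0.0270). After rescaling it was 0.79 (adjusted p = 0.0249). The call was close to the threshold. It was lost with only these groups in the fit (adjusted p = 0.0704), and on leaving out HDM replicate 1 (adjusted p = 0.0729), 3 (0.0508), 4 (0.0780) or 5 (0.0653), or HDM + Dex replicate 1 (0.0696), 3 (0.0648), 4 (0.0683) or 5 (0.0718). Leaving out any sample gave log2 fold changes of 0.75 to 0.88. In the samples under 25% of 7SL RNA it was 0.93 (adjusted p = 0.360), and in those above 25% it was 0.79 (adjusted p = 0.104). Per 100 CPM of Acta2, Cnn1 averaged 20.4 ± 4.61 CPM with Dex and 15.7 ± 3.93 without, and these ranges overlapped.

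Myh11 came next, at 282 CPM at the lowest, 351 at the median and 496 at the highest with Dex. In HDM samples it was 149, 249 and 393 CPM. The samples overlapped, and the HDM + Dex sample was higher in 43 of 49 pairs. The log2 fold change was 0.55 ± 0.17 (SE), with an adjusted p of 0.114. Acta2 averaged 106 ± 31.7 CPM with Dex (log2 fold change 0.49, adjusted p = 0.226), Myl9 19.3 ± 4.81 CPM (0.46, adjusted p = 0.221) and Lmod1 21.2 ± 5.56 CPM (0.43, adjusted p = 0.293). The intervals of these 3 and of Tagln lay above 0 before adjustment. Actg2, Myocd and Smtn gave 0.39, 0.26 and 0.10, with intervals that included 0, and Smtn turned to −0.06 in the samples under 25% of 7SL RNA.

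Heart muscle genes also had log2 fold changes above 0 in this comparison, 10 of 10 with a median of 1.36, though none passed the test as deposited and 1 did after rescaling. Their summed CPM spread from 73.0 to 1436 in HDM + Dex samples. All 8 large airway genes lay above 0, with 1 called, Dnah5 (1.41, adjusted p = 0.0292), joined by Tppp3 after rescaling (0.88, adjusted p = 0.0121), and a summed CPM of 699 to 5377. Mural cell genes had a median of 0.05, with none of 10 called. Of the 8 fibroblast genes, the collagens Col1a1 (−0.85, adjusted p = 0.0270), Col1a2 (−0.72, adjusted p = 0.0311) and Col3a1 (−0.90, adjusted p = 0.0356) fell, and they were called after rescaling as well. The fibroblast list went both ways, with 4 of 8 above 0 (0.70 at the highest), 0 called higher and a median of −0.11. The part of these cells in the values of Cnn1 and Myh11 was not tested. Of the partners, Pdlim3 rose (0.80, adjusted p = 0.0365), 1 of 20, and 14 of 20 lay above 0. No gene of the myosin switch, of the serum response factor list or of the receptors was called. In these lists, in that order, 10 of 11, 8 of 10 and 13 of 14 lay above 0, beside 56.2% of all genes. The medians were 0.27, 0.12 and 0.21.

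Values of HDM + Dex were also set against those of naïve aged lungs, which share samples with both comparisons above. None of the 9 was called (1.89% of all genes were, 0.445% higher and 1.44% lower), and 1 of 9, Myh11, had an unadjusted p under 0.05, beside 21.2% of all genes. Cnn1 averaged 20.7 ± 3.78 CPM (SD, n = 7) with Dex and 24.2 ± 7.91 CPM (SD, n = 5) in naïve aged samples, with a log2 fold change of −0.17 and an interval from −0.55 to 0.21, which includes 0 and does not show that the groups were alike. For Myh11, at 370 ± 80.4 and 278 ± 34.2 CPM, the log2 fold change was 0.40 (adjusted p = 0.222). The median of the 9 was 0.17, beside −0.19 for all genes, and 5 of 9 lay above 0 (22.4% of all genes). After rescaling all 9 did (48.3% of all genes), with a median of 0.36, and none was called, beside 0.941% of all genes. In the lists, Vcl (−0.54, adjusted p = 0.0454), Rock2 (−0.65, adjusted p = 0.0447), Klf4 (−0.79, adjusted p = 0.0444) and Ednrb (−1.01, adjusted p = 0.0316) were lower with HDM + Dex than in naïve aged lungs. None of these 4 was called after rescaling.

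The last comparison set naïve aged against naïve adult lungs. None of the 9 was called, beside 0.654% of all genes. The log2 fold change was below 0 for 8 of the 9, as for 21% of all genes, and the median was −0.31 beside 0.19 for all genes. Without adjustment, Actg2 and Smtn had a p under 0.05 (2 of 9, beside 11.2% of all genes). After rescaling all 9 lay below 0, while 50.7% of all genes lay above it, with a median of the 9 of −0.52, and Myh11 was called, at −0.61 ± 0.12 (SE; limma, adjusted p = 0.0262), as were 1.03% of all genes.

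Myh11 was 245, 458, 420, 422 and 315 CPM in the naïve adult samples. In the naïve aged samples it was 233, 267, 321, 266 and 301 CPM. Replicate 1 of the naïve adult group, with a 7SL share of 42.0%, was its lowest sample and lay within the aged range. That sample was the lowest of its group for 8 of the 9 genes. Without it, the log2 fold change of Myh11 as deposited was −0.53 (adjusted p = 0.106). Actg2 was 11.7, 15.4, 17.1, 15.2 and 14.7 CPM in naïve adult samples. In the naïve aged ones it was 5.97, 7.49, 10.2, 7.39 and 19.9 CPM, and replicate 5 was above every adult sample. Its log2 fold change was −0.61 ± 0.26 (SE), with an adjusted p of 0.378. Smtn averaged 66.2 ± 14.6 and 46.8 ± 9.76 CPM (SD, n = 5 each), with −0.49 ± 0.21 and an adjusted p of 0.380. Cnn1 averaged 33.9 ± 8.61 and 24.2 ± 7.91 CPM, with −0.49 and an interval from −1.004 to 0.03.

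All naïve adult samples, but only 2 of the naïve aged ones, had the higher Xist. For each of the 9 genes, the 2 samples with higher Xist and the 3 with higher Ddx3y overlapped in range, for example 266 and 321 against 233 to 301 CPM for Myh11. Beyond those 2 samples, age and sex cannot be told apart. With only the samples of higher Xist (5 adult and 2 aged), the log2 fold change as deposited was −0.31 for Myh11 (adjusted p = 0.833) and −0.70 for Actg2 (adjusted p = 0.521). After rescaling, this subset gave −0.56 for Myh11 (adjusted p = 0.170) and −0.92 for Actg2 (adjusted p = 0.0692). None of the partners, switch, serum response factor or receptor genes was called as deposited, and Pde5a of the switch was lower after rescaling (−0.70, adjusted p = 0.0478). Beside Myh11, 1 of 10 mural cell genes, Pdgfrb (−0.70, adjusted p = 0.0185), was lower after rescaling. So was 1 of 8 genes of the airway smooth muscle and myofibroblast list, Npnt (−0.58, adjusted p = 0.0316). On this scale 1.03% of all genes were called. Rgs5 of the mural list went the other way (0.89, adjusted p = 0.169). Enpp2 and Pdgfra of the airway smooth muscle and myofibroblast list stood at 0.07 and 0.04. Of the fibroblast genes, Col1a1 (−1.42, adjusted p = 0.00147), Col1a2 (−1.01, adjusted p = 0.0224) and Col3a1 (−1.28, adjusted p = 0.0330) were lower in aged lungs as deposited and after rescaling. The part of these cells in the value of Myh11 was not tested.

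**Figure D4:**
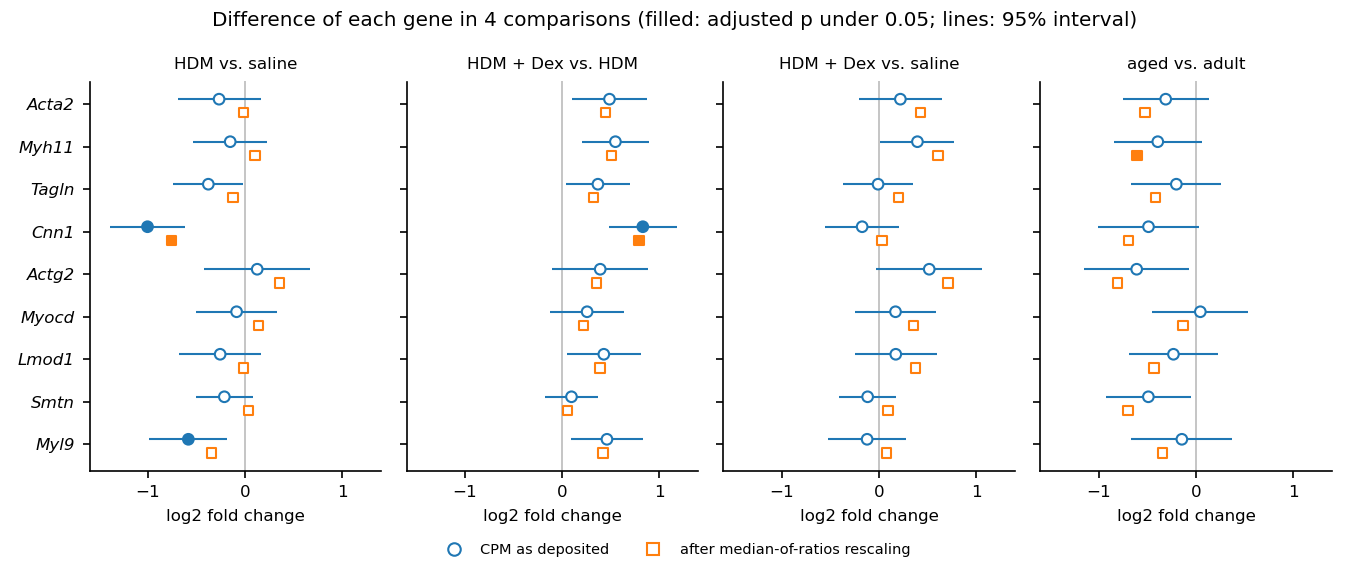
Log2 fold change of each of the 9 genes in 4 comparisons, from CPM as deposited (circles, with 95% interval) and after median-of-ratios rescaling (squares), filled where the adjusted p is under 0.05. Cnn1 is filled on both scales in HDM vs. saline and HDM + Dex vs. HDM, Myl9 only as deposited in HDM vs. saline, and Myh11 only after rescaling in aged vs. adult.

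Most members shared the lowest and the highest of the 4 group means, but not the whole order, which was the same for 4 of the 9 as deposited (Tagln, Cnn1, Smtn and Myl9: HDM, HDM + Dex, naïve aged, naïve adult). As deposited, HDM samples had the lowest mean for 8 of 9 (naïve aged for Actg2), and naïve adult samples had the highest for 8 of 9 (HDM + Dex for Myocd). After rescaling, the naïve aged mean was lowest for 6 and the HDM mean for 3 (Tagln, Cnn1 and Myl9), and the naïve adult mean was highest for 6 and the HDM + Dex mean for 3 (Myh11, Myocd and Lmod1). The lowest place of Tagln, Cnn1 and Myl9 in HDM samples held on both scales. These are orders of means, and not every pair of neighbours in them was tested.

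Within groups the members varied together. After rescaling and removal of group means, the 36 pairs had a median Pearson correlation of 0.64 over 24 samples, from 0.10 for Smtn and Myl9 to 0.88 for Myh11 and Tagln. Acta2, Myh11 and Tagln formed the tightest set, at 0.85 to 0.88. Cnn1 went most closely with Actg2 (0.82) and least with Myl9 (0.21), although Cnn1 and Myl9 were the pair called in HDM vs. saline. Myocd went with Lmod1 at 0.79 and with Myh11 at 0.73. Smtn had the lowest median correlation with the others, 0.41. In naïve aged samples, replicate 5 was highest for 7 of 9 genes and replicate 1 lowest for 8. In HDM samples, replicate 1 was highest for 6 and replicate 7 lowest for 5. The samples share libraries and one scaling factor each, so these values describe the samples and were not tested.

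**Figure D5:**
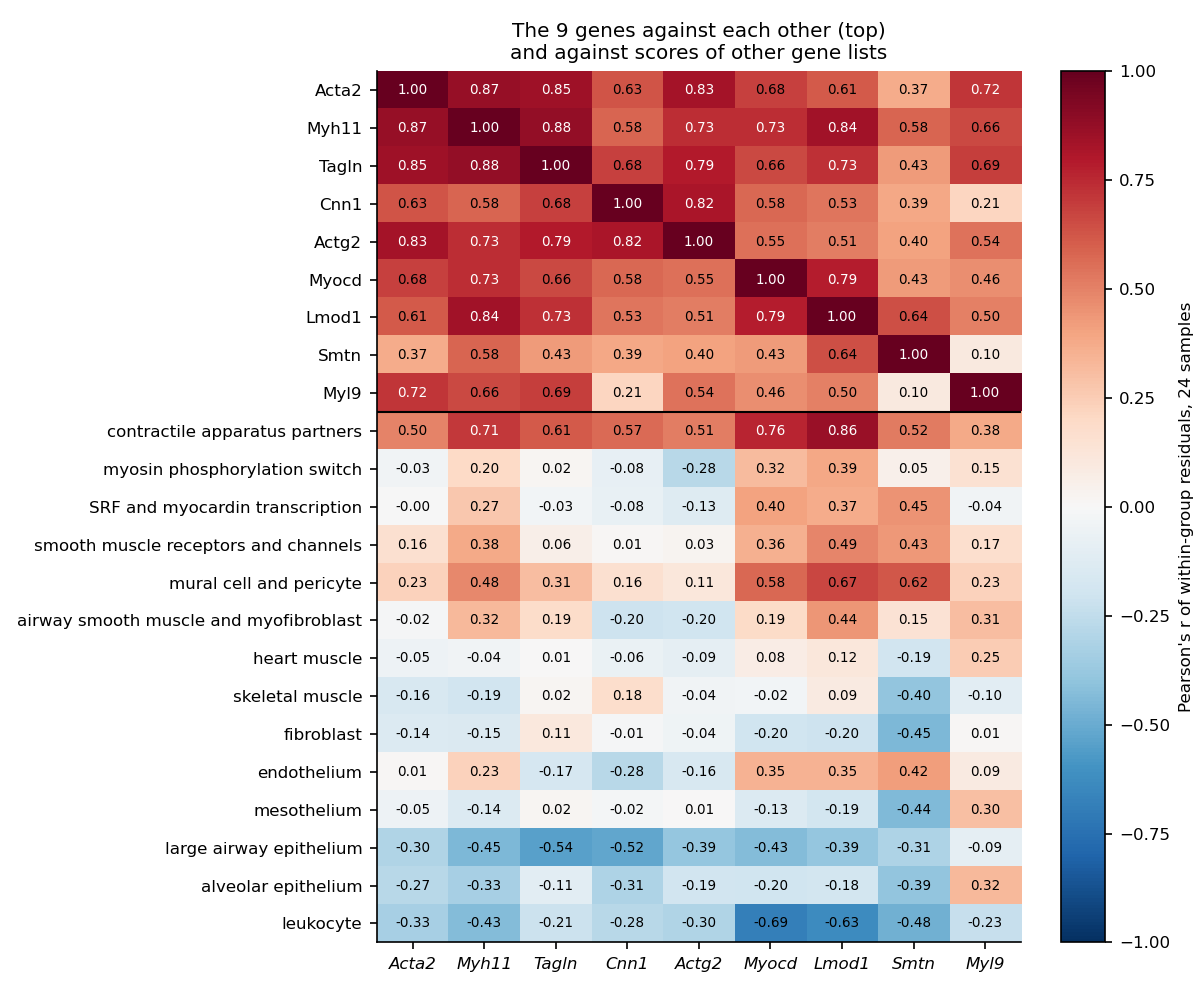
Pearson correlations over 24 samples of log2(CPM + 1) after rescaling and removal of group means, between the 9 genes (upper block) and between each of them and the mean score of other gene lists (lower block). The upper block runs from 0.10 to 0.88, and the list of contractile partners is the closest of the lists for the 9 genes together, at 0.74.

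Against other lists, the mean score of the 9 correlated at 0.74 with the contractile partners, 0.47 with mural cells and pericytes, 0.00 with heart muscle, 0.16 with airway smooth muscle and myofibroblast genes, −0.47 with the large airway epithelium and −0.49 with leukocytes. The genes closest to that score among 12382 with a mean of at least 5 CPM were Chil4 (0.83), Synpo2 (0.82), Gm47171 (0.81), Slc5a1 (0.79), Ccl11 (0.78), Pfkfb2 (0.78), Aqp11 (0.76) and Col6a5 (0.76). Synpo2 is a smooth muscle protein of the partners list. Chil4, a chitinase-like protein, and Ccl11, the eosinophil chemoattractant eotaxin, are known from allergic airways. The SE of the log2 fold change was 0.69 for Chil4 and 0.66 for Ccl11 in HDM vs. saline. In aged vs. adult it was 0.18 and 0.20, so both genes spread more in the fit with HDM-exposed samples. Whether these correlations hold in naïve samples alone was not tested. Between groups these genes did not all follow the 9: in HDM vs. saline Chil4 rose by 3.65 (adjusted p = 0.00118) and Ccl11 by 3.00 (adjusted p = 0.00285) on the log2 scale, while Synpo2 stood at −0.21 (adjusted p = 0.325).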

How the data were processed

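RNA of 24 lung samples was measured. The study's methods describe stranded mRNA libraries, paired-end sequencing and a Picard-STAR-limma pipeline. The submitters' processing notes also name FastQC, DESeq2 and build mm9, while the gene coordinates of the table lie on GRCm38. The authors deposited CPM for 23891 genes, with a constant of 0.0001 added to each value. The counter is not given in the sources used here. Only 80.4% to 85.1% of low values (within 0.05) were whole multiples of 1 read, so no count test was run.

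Here, limma 3.58.1 in R 4.3.3 (eBayes with trend) was fitted to log2(CPM + 1) of the 17744 genes that averaged 1 CPM or more, with Benjamini-Hochberg adjustment over all of them and a threshold of 0.05. A pseudocount of 1 understates changes of low genes. The 19 aged samples shared one fit, and the 10 naïve samples another. On simulated data for HDM vs. saline, 195 of 195 genes changed by 2 on the log2 scale were recovered among 17470, with 6 other calls. The smooth muscle genes described here changed less, with log2 fold changes of −1.004 to 0.12 in HDM vs. saline. How often changes of that size are missed is not known from this simulation. Scaling, pseudocounts (0.1 and 5), filters (none and 5 CPM), threshold (0.01), weights, covariates, replicate block and left-out samples were varied. Rescaling combined with a sex covariate or with sex subsets, and the motif with 1 letter off, were added after the data were seen. Python 3.11.15, numpy 2.4.6, pandas 2.3.3 and matplotlib 3.10.9 were used.

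The 9 genes and all lists were chosen with earlier results of these data known. Up to 4 genes per list were named, those past the test with the lowest adjusted p, and the 8 genes closest to the score of the 9; Flna, Mrtfa, Dnah5, Tppp3, Vwf, Pde5a, Pdgfrb, Npnt and the fibroblast genes were named after their values were seen. Some genes that this rule names are not reported here. Reads estimated from spacing cover counting error only.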

Additional observations from a re-analysis of the deposited data

Results flagged for a closer look

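In 1 of 44 groups of values examined (9 genes and 2 ratios of Cnn1, 4 groups each), 1 sample stood far from the rest of its group. Tagln was at 56.3 CPM in naïve adult replicate 1, and the nearest of the other naïve adult samples was at 104 CPM. Chance alone would set apart about 1 in 20 such groups. The 7SL share of that sample was 42.0%, the highest of all samples, and after median-of-ratios rescaling the naïve adult values of Tagln ran from 92.8 to 107. The part of the 7SL share in this value was not tested beyond that rescaling.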

How the results depend on the processing

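Of 1224 log2 fold changes of the 9 genes under other settings, 8 of the changes of direction and 14 of the lost calls came from leaving out a sample; under the other settings 553 kept direction and call, 13 lost a call, 9 gained one and 46 changed direction, and no value that changed direction was called on either side. The number of the 9 called in HDM vs. saline (2) was 1, Cnn1, after median-of-ratios rescaling with or without a sex covariate, after quantile normalization, with 7SL RNA removed or as a covariate, with all 24 samples in the fit, at a threshold of 0.01 and with 7SL shares under 25%, and it was 1 to 2 on leaving out each sample. The number in HDM + Dex vs. HDM (1, Cnn1) was 0 with only those groups in the fit, at a threshold of 0.01 and with only 7SL shares under or above 25%, 2 (Myh11 and Cnn1) with the 7SL share as covariate and with rescaling and a sex covariate, and 0 to 1 on leaving out each sample. In HDM + Dex vs. saline (0) it was 1, Myh11, with sample quality weights, and 0 on leaving out each sample. In aged vs. adult (0) it was 1, Myh11, after rescaling, 5 (Myh11, Tagln, Cnn1, Actg2 and Smtn) with sample quality weights, and 0 on leaving out each sample. Where not shown by fewer samples or the stricter threshold, the cause was not tested.

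Correlations of same-numbered samples ran from −0.24 to 0.40 over the comparisons. Differently numbered samples were not correlated beside them, so these values cannot show whether the numbers pair samples. With the replicate number as a block, 2 of the 9 genes were called in HDM vs. saline, 0 in HDM + Dex vs. HDM (Cnn1, 0.83, adjusted p = 0.0678), and 0 in the other comparisons.

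Changes of direction are given as log2 fold changes in the order rescaling, quantile normalization, 7SL RNA removed, and rescaling with a sex covariate. In HDM vs. saline they were 0.10, 0.081, 0.087 and 0.044 for Myh11, and 0.14, 0.14, 0.12 and 0.064 for Myocd, which was also 0.054 with quality weights and 0.075 with the replicate block. Smtn was 0.036, 0.022 and 0.014 in this comparison without the quantile value, and Actg2 was −0.013 with 7SL shares under 25%. In HDM + Dex vs. HDM, Smtn was −0.055 with 7SL shares under 25%. In HDM + Dex vs. saline the values were 0.20, 0.23, 0.18 and 0.27 for Tagln, 0.031, 0.023, 0.0082 and 0.074 for Cnn1, 0.091, 0.090, 0.069 and 0.13 for Smtn, and 0.080, 0.071, 0.058 and 0.13 for Myl9. Tagln was also 0.029 with quality weights, 0.053 with the replicate block and 0.017 with a sex covariate, and Myl9 was 0.030 with the 7SL covariate. Myocd was −0.10 and −0.019, and Lmod1 −0.13 and −0.13, with the 7SL covariate and with 7SL shares under 25%. In aged vs. adult, Myocd was −0.13, −0.16, −0.089 and −0.18, −0.17 with quality weights, −0.18 with the 7SL covariate and −0.18 after rescaling of samples with higher Xist. On leaving out each sample, Actg2 in HDM vs. saline ran from −0.017 to 0.38, Myocd from −0.19 to 0.023, Tagln in HDM + Dex vs. saline from −0.090 to 0.066, and Myocd in aged vs. adult from −0.099 to 0.22. Depth did not limit these genes, whose lowest value was about 45 reads.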
